A study of Mus musculus with 9 samples.

Results

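The 9 genes described here belong to the glucocorticoid pathway: the receptor gene Nr3c1, its co-chaperone gene Fkbp5, the target genes Tsc22d3, Sgk1, Zbtb16 and Pfkfb3, and the steroid enzyme genes Cyp11a1, Hsd11b1 and Hsd11b2. They were chosen by gene name from the 55468 genes of a table of mouse intestinal RNA, because Fkbp5 and Pfkfb3 ranked high in the library R against the library C, so the values of that pair of libraries are given as a description only. Each name had 1 row in the table. The study sequenced RNA of the mouse intestinal tract under 9 conditions with 1 library per condition, and asked what diets lacking certain amino acids do to the gut. No condition had a replicate, so there is no test here, every difference is between 2 libraries, and no value has an error between replicates. The labels used here name no strain, sex or hour of collection, and do not say whether a library holds 1 animal or a pool.

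The mice of 8 conditions had dextran sulfate sodium (DSS), an agent that injures the gut lining and causes colitis, in their drinking water from day 18 of rearing. The 1KR, 2KR and 3KR mice ate a deficient diet up to day 28 and a normal diet until their gut was taken on day 33, and the RR mice ate the normal diet throughout and were also sampled on day 33. The 1K, 2K and 3K mice ate the deficient diet and the R mice the normal diet, and all were sampled on day 28. The diets of 1K and 1KR lacked methionine, those of 2K and 2KR lacked tryptophan and niacin, and those of 3K and 3KR lacked all 3 nutrients. The C mice had normal feed and no DSS and were sampled on day 34. C therefore differs from every other library in DSS and also in age at collection.

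Glucocorticoids are steroid hormones, corticosterone in mice, that enter the cell and bind a receptor held in the cytoplasm by the chaperone Hsp90 and its partners. The bound receptor moves to the nucleus and attaches to DNA elements near its target genes, among them Fkbp5, whose product joins the Hsp90 complex and lowers the receptor's affinity for hormone, a negative feedback loop. The gut lining is itself a target tissue and can make corticosterone locally, from cholesterol by way of Cyp11a1 and further enzymes, while Hsd11b1 regenerates active hormone from its inert form and Hsd11b2 inactivates it.

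The receptor binds a palindrome built from the core AGAACA and its reverse complement TGTTCT, 3 bases apart. To show what sequence lies at the starts of the target genes, 15 promoter windows of RefSeq (build GRCm38.p6, 250 bases before and 50 bases from each annotated start) were searched on both strands for this whole element (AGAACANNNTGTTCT), for its core AGAACA alone, and for the E-box CACGTG, a motif of clock and other factors. The windows covered 6 of the 9 genes. The whole element occurred in 3 of all 32851 windows of the table (0.00913%), the core in 19.0% and the E-box in 7.15%. Each whole element also holds the core on each strand. For the receptor's target and chaperone genes that had a window, the one with the longest match is shown, written 5′ to 3′ along the gene with all matches in capitals.
Sgk1, chr10:21993640-21993939, plus strand: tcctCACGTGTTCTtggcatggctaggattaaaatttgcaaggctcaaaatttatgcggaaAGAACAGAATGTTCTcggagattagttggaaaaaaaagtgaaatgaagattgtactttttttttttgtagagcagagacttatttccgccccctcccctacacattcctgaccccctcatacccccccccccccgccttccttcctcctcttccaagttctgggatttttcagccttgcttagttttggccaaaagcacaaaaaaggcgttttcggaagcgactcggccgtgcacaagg
Tsc22d3, chrX:140600473-140600772, minus strand: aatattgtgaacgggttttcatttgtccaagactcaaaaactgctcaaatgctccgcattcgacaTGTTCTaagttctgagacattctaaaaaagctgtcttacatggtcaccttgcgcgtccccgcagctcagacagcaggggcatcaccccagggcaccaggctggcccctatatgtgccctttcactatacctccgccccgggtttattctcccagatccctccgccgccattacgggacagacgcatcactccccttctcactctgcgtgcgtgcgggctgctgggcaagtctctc
Fkbp5, chr17:28486100-28486399, minus strand: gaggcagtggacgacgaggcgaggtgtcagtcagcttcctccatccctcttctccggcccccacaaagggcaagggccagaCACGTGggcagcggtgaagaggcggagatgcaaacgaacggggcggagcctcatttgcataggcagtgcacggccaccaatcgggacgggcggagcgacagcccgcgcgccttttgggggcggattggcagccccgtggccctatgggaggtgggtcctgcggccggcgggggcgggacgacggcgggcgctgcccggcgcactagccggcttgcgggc
Pfkfb3, chr2:11502041-11502340, minus strand: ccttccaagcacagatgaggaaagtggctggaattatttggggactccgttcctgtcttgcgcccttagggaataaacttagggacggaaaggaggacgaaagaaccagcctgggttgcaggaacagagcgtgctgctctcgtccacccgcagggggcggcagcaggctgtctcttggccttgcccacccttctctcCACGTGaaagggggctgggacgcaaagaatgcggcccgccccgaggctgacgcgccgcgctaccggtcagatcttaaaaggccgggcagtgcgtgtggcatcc
The Sgk1 window, 1 of 6 for this gene, held the whole element 189 bases before the start, as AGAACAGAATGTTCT, and near its 5′ end an E-box whose last bases overlap a further TGTTCT. Of the other 5 Sgk1 windows, 2 held the core alone. The Tsc22d3 window shown held TGTTCT 185 bases before the start, and the other windows of this gene held no match. The windows shown for Fkbp5 and Pfkfb3 held an E-box each, at 169 and 53 bases before the start, and none of the receptor motifs within these 300 bases. A further Pfkfb3 window held no match. These are matches of letters, and binding was not measured.

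The authors' values are FPKM, fragments scaled to transcript length and to library depth, so levels may be compared between genes. The depth was estimated, from the spacing of the lowest FPKM values, at 15600000 fragments in 3KR and 24300000 to 34300000 fragments in the other 8 libraries, which makes 1 FPKM of a 2-kilobase transcript worth about 28.1 to 61.7 fragments. The libraries differed in tissue content. The 13 marker genes of pancreatic acinar cells summed to 44383 FPKM in 2K and 52183 FPKM in 3K, against 30.4 to 110 FPKM in the other 7 libraries. The 13 liver genes summed to 31111 FPKM in 2K, against 96.1 to 390 FPKM elsewhere, and 9 stomach genes to 17920 FPKM in 2K and 58.2 FPKM in 3K, against at most 2.39 FPKM elsewhere, where none of them reached 1 FPKM. The 10 colon genes summed to 1603 FPKM in 3KR, against 81.1 to 281 FPKM elsewhere, and 10 neutrophil genes to 2532 FPKM there, against 8.04 to 186 FPKM elsewhere. The 9 genes of duodenum and jejunum summed to 1734 to 4551 FPKM in 6 libraries, but to 181 FPKM in 3KR, 244 FPKM in R and 130 FPKM in C. Of the sums of 3724 FPKM in 2K and 4551 FPKM in 3K, Reg1 alone made 2994 and 3070 FPKM, against 6.59 FPKM in 1K. The 10 epithelial genes were all above 1 FPKM in every library, with sums of 2549 to 5971 FPKM. In such bulk tissue, fewer cells of a type and less RNA per cell cannot be told apart.

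**Figure D1:**
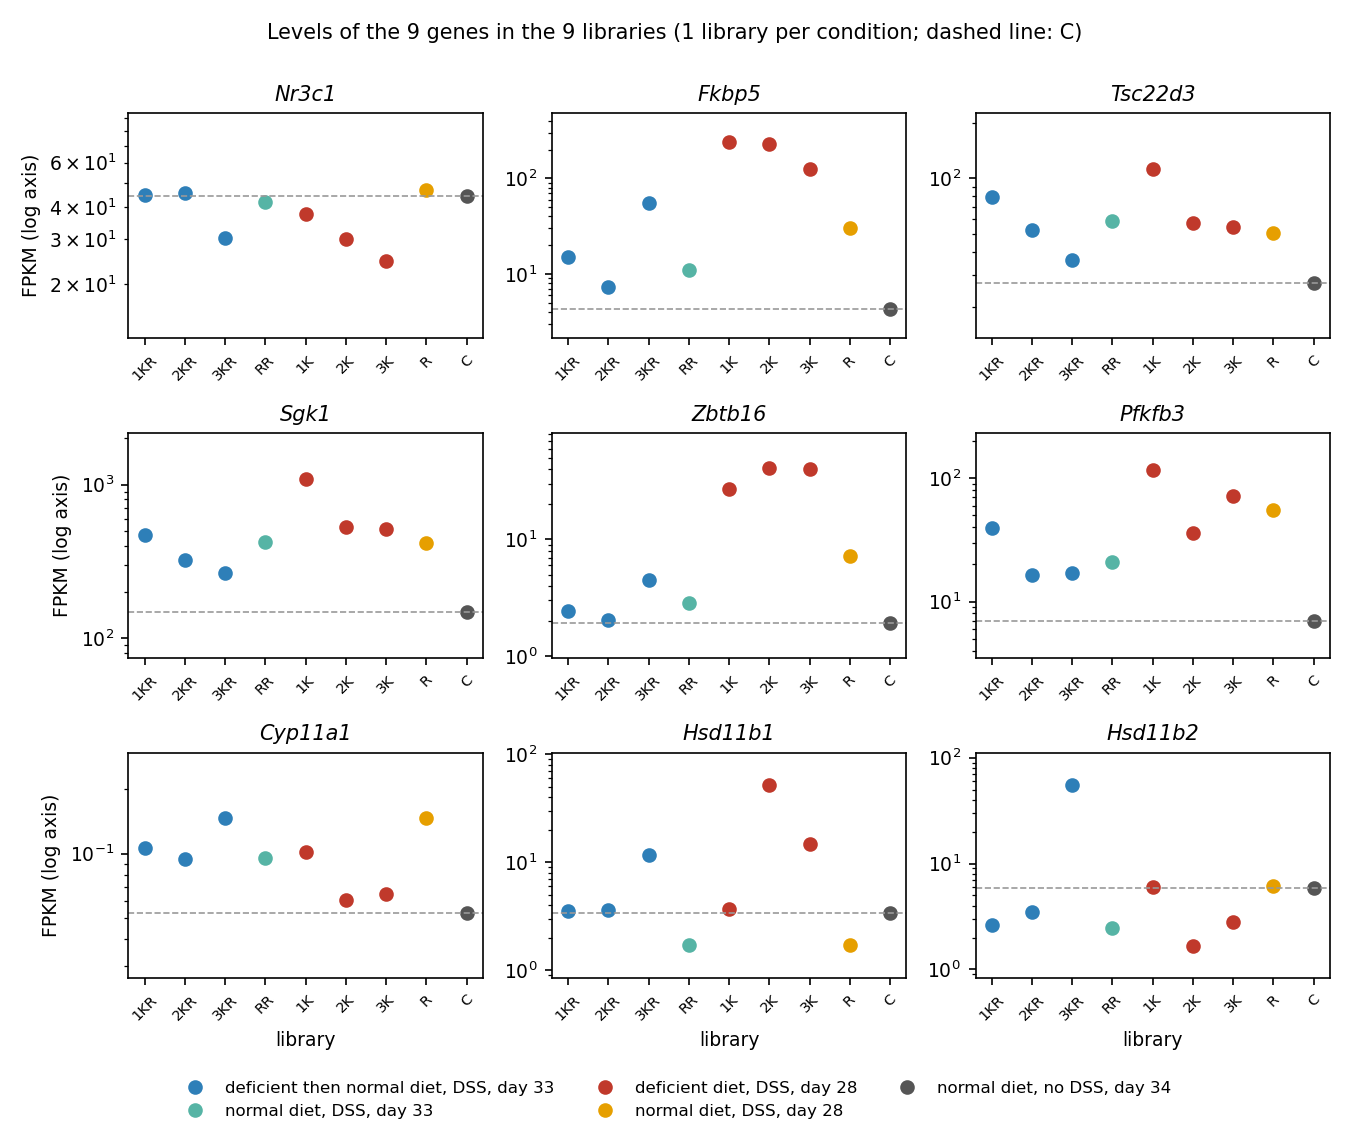
FPKM (log axis) of each of the 9 genes in the 9 libraries; each point is 1 library, colours give diet, DSS and day, and the dashed line is the level in C. Fkbp5, Tsc22d3, Sgk1, Zbtb16 and Pfkfb3 lie above the dashed line in all 8 DSS libraries, and Cyp11a1 stays at or below 0.147 FPKM.

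Nr3c1, which encodes the glucocorticoid receptor, stayed within 2-fold in all 9 libraries on the authors' scale. It stood at 44.8, 45.4, 30.3 and 42.0 FPKM in 1KR, 2KR, 3KR and RR, at 37.8, 30.2, 24.5 and 46.8 FPKM in 1K, 2K, 3K and R, and at 44.4 FPKM in C. The highest level was 1.91 times the lowest, and 70.9% of the 13382 genes that reached 5 FPKM in some library had a range at least as wide. When all libraries were instead scaled to the summed FPKM of protein-coding genes without organ markers, 3K against R came to -1.07 on the log2 scale, past 2-fold. The lowest levels were those of 3K, 2K and 3KR, the 3 libraries with other-organ or colon transcripts, and whether tissue content has a part in this was not tested.

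Fkbp5 (chromosome 17, 28399094 to 28517527, minus strand) had the widest range of the 9 genes. It stood at 15.0, 7.36, 55.6 and 10.9 FPKM in 1KR, 2KR, 3KR and RR, at 240.2, 229, 125 and 29.9 FPKM in 1K, 2K, 3K and R, and at 4.24 FPKM in C. Its highest level was 56.6 times its lowest, a range that 3.32% of the 13382 genes matched or passed. The 3 deficient libraries lay above all others, C lay below all others, and 3KR was the highest of the refed libraries. Where it was highest, in 1K, the 13 acinar genes summed to 30.4 FPKM, against 77.4 FPKM in R, and the 13 liver genes to 96.1 FPKM, against 281 FPKM in R. The 9 duodenal and jejunal genes summed to 3691 FPKM in 1K, against 244 FPKM in R, and 7 ileal genes to 796 FPKM, against 2775 FPKM. The part of tissue content in the Fkbp5 levels was not tested.

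The libraries were made from total RNA depleted of ribosomal RNA, and 4 RNAs annotated inside the Fkbp5 gene were listed too. AC154912.5, annotated as an intronic RNA on the strand of Fkbp5, stood at 4.51, 2.38, 3.94 and 4.09 FPKM in 1KR, 2KR, 3KR and RR, at 15.6, 13.7, 8.43 and 10.4 FPKM in 1K, 2K, 3K and R, and at 0.389 FPKM in C. In R its FPKM was 26.7 times that in C, where Fkbp5 itself was 7.04 times that in C. In 1K its FPKM was 1.5 times that in R, where Fkbp5 was 8.05 times that in R. AC154912.3 lies on the Fkbp5 strand as well, and AC154912.1 and Gm22146 lie on the opposite strand. The FPKM ratios of these 3 RNAs were 1.68, 1.68 and 1.82 in 1K against R, and 16.5, 9.54 and 19.3 in R against C. All 4 RNAs were thus farther apart than Fkbp5 in R against C by this ratio, with levels under 1 FPKM in C, and less far apart than Fkbp5 in 1K against R. With 0.5 added to each FPKM, AC154912.1 differed by 2.40 on the log2 scale in R against C, less than Fkbp5 at 2.68. Whether the authors counted by strand was not given in the sources used here, so reads of overlapping genes on opposite strands may not be separable, and reads of unspliced Fkbp5 RNA cannot be told apart from those of the RNAs on its own strand.

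**Figure D2:**
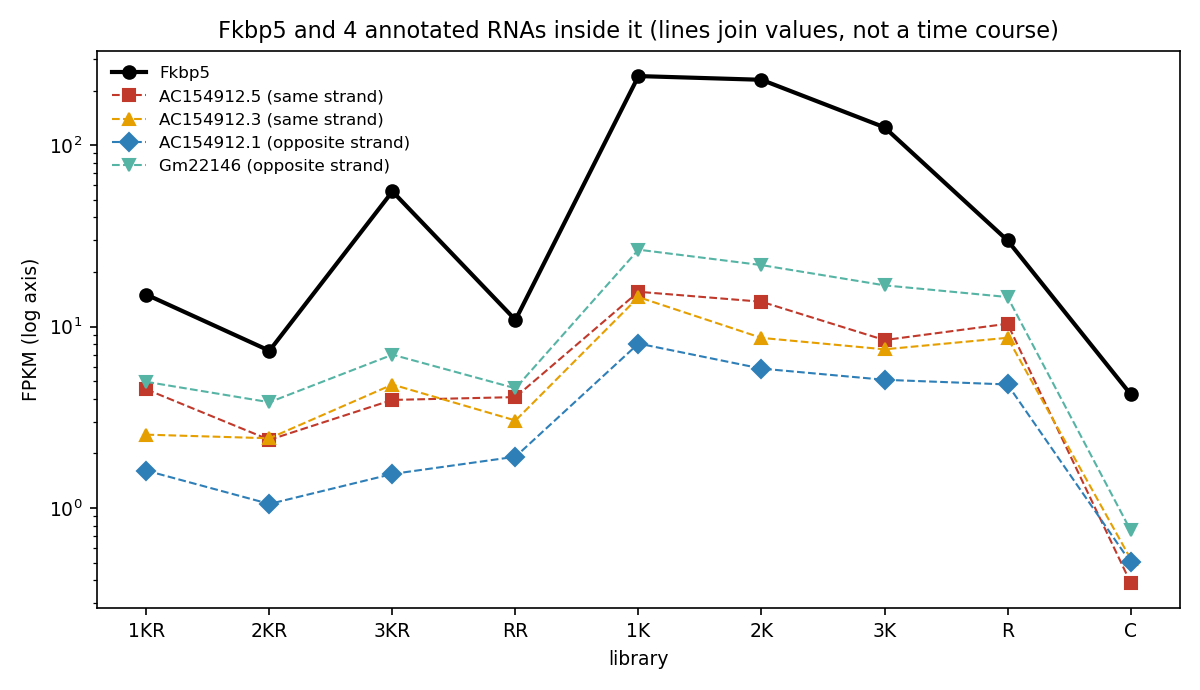
FPKM (log axis) of Fkbp5 and of the 4 RNAs annotated inside it, by library; lines join the values of a gene. The 4 RNAs stand at 0.813 to 1.16 times their level in R in 3K, where Fkbp5 stands at 4.20 times its level in R.

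Zbtb16 (chromosome 9, 48654297 to 48836222, minus strand), a zinc finger transcription factor induced by glucocorticoids in many cell types, had the profile closest to Fkbp5 among the 9 genes. It stood at 2.46, 2.05, 4.47 and 2.86 FPKM in 1KR, 2KR, 3KR and RR, at 27.1, 40.7, 39.8 and 7.18 FPKM in 1K, 2K, 3K and R, and at 1.93 FPKM in C. The 3 deficient libraries again lay above all others, while 1KR, 2KR and RR lay within 1 FPKM of C. Over the 9 libraries the Pearson correlation of log2 levels with Fkbp5 was 0.93 and the Spearman correlation 0.92, and Zbtb16 ranked 10 of 8811 genes in likeness to Fkbp5.

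Sgk1 (chromosome 10, 21882184 to 21999903, plus strand), a kinase that raises sodium transport by holding channels and exchangers at the membrane, was the most abundant of the 9. It stood at 473, 322, 265 and 424 FPKM in 1KR, 2KR, 3KR and RR, at 1084, 525, 509.7 and 415 FPKM in 1K, 2K, 3K and R, and at 148 FPKM in C. The methionine-deficient library 1K was far above the rest, and 2K and 3K lay only slightly above 1KR, RR and R.

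Tsc22d3 (chromosome X, 140539528 to 140600659, minus strand) encodes GILZ, a leucine zipper protein that carries anti-inflammatory effects of glucocorticoids. It stood at 79.6, 52.3, 36.3 and 58.7 FPKM in 1KR, 2KR, 3KR and RR, at 113, 57.2, 54.2 and 50.65 FPKM in 1K, 2K, 3K and R, and at 27.2 FPKM in C. Like Sgk1 it was highest in 1K, and 2K, 3K, R, RR and 2KR lay close together. The log2 levels of Tsc22d3 and Sgk1 had a Pearson correlation of 0.94 over the 9 libraries, against 0.49 for Tsc22d3 and Fkbp5.

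Pfkfb3 (chromosome 2, 11471433 to 11554077, minus strand) encodes the enzyme that makes fructose 2,6-bisphosphate, the allosteric activator of glycolysis. It stood at 39.3, 16.4, 17.0 and 20.9 FPKM in 1KR, 2KR, 3KR and RR, at 116, 35.7, 71.6 and 55.1 FPKM in 1K, 2K, 3K and R, and at 6.97 FPKM in C. Again 1K was highest, but 2K lay below R. The antisense gene Gm10851 inside it stayed at or below 0.831 FPKM.

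Fkbp5, Tsc22d3, Sgk1, Zbtb16 and Pfkfb3 were thus above C in all 8 DSS libraries, a pattern shown by 7.58% of the 21249 genes that reached 1 FPKM in some library. For Zbtb16 the margin was small, 2.05 FPKM in 2KR against 1.93 FPKM in C, and it did not hold with other scalings. The members were chosen partly on R against C, which is 1 of these 8 pairs, and all 8 share the single library C. Fkbp5, Zbtb16 and Sgk1 were also higher in each of 1K, 2K and 3K than in any of the other 6 libraries, as were 5.55% of those 21249 genes. For Sgk1 the margin was small, 509.7 FPKM in 3K against 473 FPKM in 1KR.

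The clock genes differed between the DSS libraries and C in both directions. Of 17 clock genes, 10 were above C in all 8 DSS libraries, a pattern shown by 7.58% of the 21249 genes, and 2, Arntl and Npas2, were below C in all 8. The share of all genes below C in all 8 was not computed, so the count of 2 has no background beside it. Dbp, a clock output gene, stood at 11.3 to 98.9 FPKM in the 8 DSS libraries and at 1.81 FPKM in C. Arntl, which encodes the core clock activator BMAL1, stood at 1.84 to 11.5 FPKM in the DSS libraries and at 22.96 FPKM in C, and Npas2, a partner of BMAL1, at 4.33 to 10.2 FPKM, against 21.9 FPKM in C. Per1, both a clock gene and a glucocorticoid target, stood at 20.5 to 93.8 FPKM in the DSS libraries and at 6.95 FPKM in C. The hour of collection is not given, and its part in the levels of the glucocorticoid targets was not tested.

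Of the steroid enzymes, Cyp11a1 (chromosome 9, 58006411 to 58027023, plus strand), which cuts the side chain of cholesterol in the first step of steroid synthesis, was barely present. It stood at 0.106, 0.094, 0.146 and 0.095 FPKM in 1KR, 2KR, 3KR and RR, at 0.102, 0.061, 0.065 and 0.147 FPKM in 1K, 2K, 3K and R, and at 0.053 FPKM in C. With the median length of its 4 annotated transcripts, 1484 bases, these levels equal about 2 to 6 fragments per library, so no difference in it was detectable at this depth. It is the only one of the 9 genes left out of the counts that follow, which take genes that reach 1 FPKM in one library of a pair or both.

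Hsd11b1 (chromosome 1, 193221634 to 193264075, minus strand), which regenerates corticosterone, was high in 3 libraries. It stood at 3.56, 3.64, 11.6 and 1.70 FPKM in 1KR, 2KR, 3KR and RR, at 3.72, 51.3, 14.8 and 1.725 FPKM in 1K, 2K, 3K and R, and at 3.40 FPKM in C. The gene is strongly expressed in liver, and 2K is the library with 15459 FPKM of Alb. The 13 liver genes summed to 306 FPKM in 3K and 137 FPKM in 3KR, against 281 FPKM in R and 390 FPKM in C, and Alb among them stood at 81.7 FPKM in 3K and 59.2 FPKM in 3KR, against 85.3 FPKM in R and 167 FPKM in C. In 3K against R, 2 of the 13 were higher, Mat1a (13.7 and 2.31 FPKM in 3K and R) and Cyp2e1 (87.9 and 40.95 FPKM), and 1 was lower, Cps1 (42.1 and 97.4 FPKM). The median difference of the 13 was 0.45 on the log2 scale. The adipocyte genes, 10 in all, summed to 406 FPKM in 2K, 467 FPKM in 3K and 141 FPKM in 3KR, against 257 FPKM in R and 383 FPKM in C. The part of liver RNA in the levels of 2K, 3K and 3KR was not tested. Lamb3 overlaps Hsd11b1 on the opposite strand and stood at 30.8 FPKM in 2K, 25.3 FPKM in 3KR, 20.9 FPKM in 1K and 11.5 FPKM in 3K, against 6.33 FPKM in R and 11.0 FPKM in C. H6pd, whose product supplies the cofactor of Hsd11b1, was higher in each of 1K, 2K and 3K, at 23.1, 50.3 and 45.3 FPKM, than in any other library, R standing at 13.5 FPKM and C at 9.34 FPKM. Of 9 counted genes of steroid handling 1, H6pd, had this pattern, as did 5.55% of 21249 genes. Against R, that list had 3 of 8 higher and 1 lower in 1K, 4 of 9 and 4 in 2K, and 3 of 8 and 4 in 3K. The all-gene shares higher and lower were 7.17% and 8.63%, 14.7% and 14.1%, and 11.6% and 13.4%.

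Hsd11b2 (chromosome 8, 105518755 to 105523988, plus strand), which inactivates corticosterone and so keeps it off the mineralocorticoid receptor, was high in 3KR alone. It stood at 2.62, 3.47, 55.5 and 2.49 FPKM in 1KR, 2KR, 3KR and RR, at 5.99, 1.67, 2.82 and 6.195 FPKM in 1K, 2K, 3K and R, and at 5.935 FPKM in C. The colon gene Car1 stood at 1151 FPKM in 3KR, against at most 2.56 FPKM in the other 8 libraries, and Retnlb and Aqp8 at 115 and 14.8 FPKM, against at most 9.08 and 3.34 FPKM. Mettl7b was highest in 3KR as well, at 74.0 FPKM, and Car4 narrowly, at 128 FPKM against 125 FPKM in 1KR. Among other colon genes, B3galt5 stood at 14.1 FPKM in 3KR, against 30.6 FPKM in 3K, Slc26a2 at 79.2 FPKM, against 140.3 FPKM in R, and Hoxb13 and Hoxd13 at 0.159 and 0 FPKM. The ileal bile acid transporter gene Slc10a2 was also highest in 3KR, at 116 FPKM. Of the 3 epithelial sodium channel genes, which accompany Hsd11b2 in the colon, Scnn1b and Scnn1g reached 1.99 and 0.55 FPKM in 3KR, against at most 0.412 and 0.238 FPKM elsewhere, whereas Scnn1a stood at 7.97 FPKM in 3KR, against 27.6 FPKM in 2K. The neutrophil gene S100a8 stood at 1273 FPKM in 3KR, against at most 73.4 FPKM elsewhere. The part of a colon segment in the level of Hsd11b2 was not tested.

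**Figure D3:**
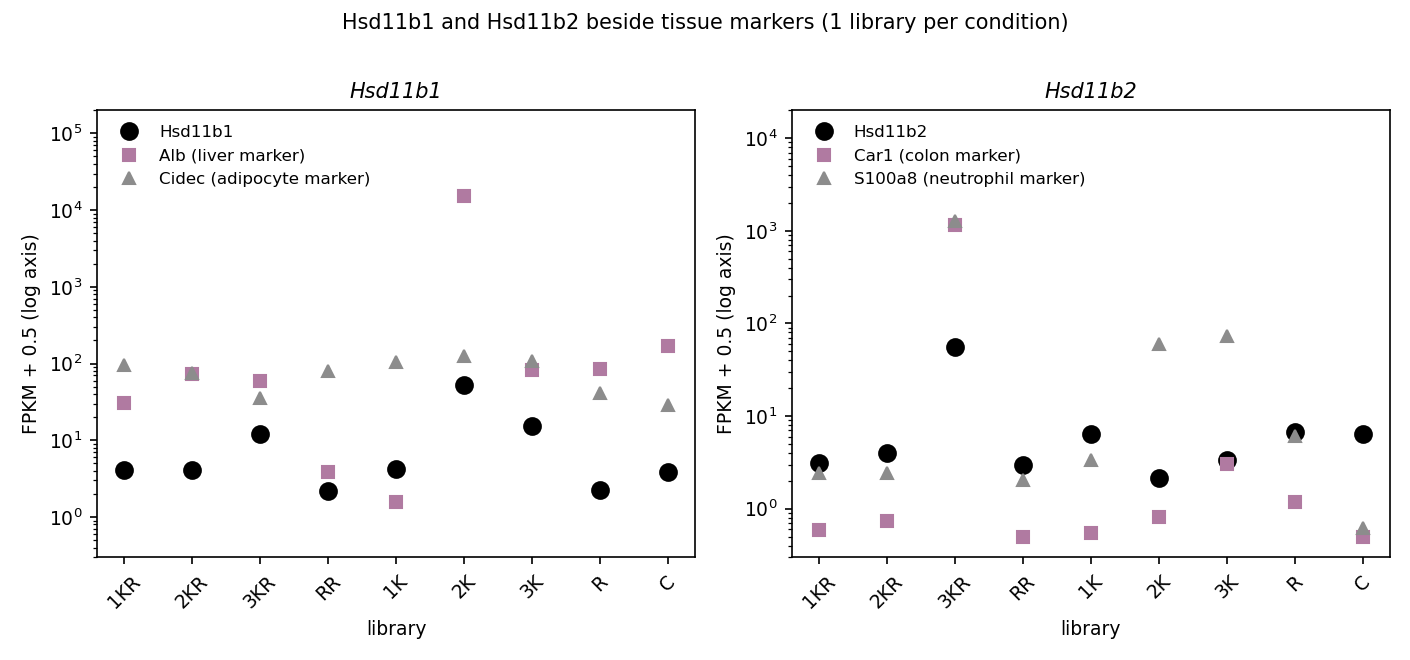
FPKM + 0.5 (log axis) of Hsd11b1 with the liver marker Alb and the adipocyte marker Cidec (left), and of Hsd11b2 with the colon marker Car1 and the neutrophil marker S100a8 (right), in the 9 libraries. Hsd11b1 and Alb are both highest in 2K, and Hsd11b2, Car1 and S100a8 are all highest in 3KR. Cidec does not stand for the whole adipocyte list. In 1K against R it is higher (105 and 40.5 FPKM), while 7 of 9 counted adipocyte genes are lower, among them Adipoq (0.85 and 20.7 FPKM).

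Differences between libraries were taken as log2(FPKM + 0.5), which understates those of low genes, and a gene was counted as apart at a difference of at least 1, that is 2-fold. In R against C, the pair behind the choice of genes, Pfkfb3 (2.89), Fkbp5 (2.68), Zbtb16 (1.66) and Sgk1 (1.49) were higher in R and Tsc22d3 differed by 0.88. That is 4 of 8 genes higher and none lower, where 4.43% of 18222 genes were higher and 3.22% lower. Among the 10893 genes of at least 5 FPKM in either library, Pfkfb3 ranked 142 and Fkbp5 148 from the top. The libraries R and C were both poor in duodenal and jejunal markers and rich in ileal ones, whose 7 genes summed to 2775 FPKM in R and 4257 FPKM in C. They still differed: 3 of 7 counted duodenal and jejunal genes were higher in R and 0 lower. Of the 7 ileal genes 1 was lower in R, Fgf15 (34.5 and 90.4 FPKM in R and C), and 0 were higher. The part of tissue content in this pair was not tested.

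On day 33, RR against C, 4 genes were again higher: Sgk1 and Pfkfb3 by 1.52 each, Fkbp5 by 1.26 and Tsc22d3 by 1.09. Hsd11b2 stood at -1.11, or at -0.99 with a pseudocount of 1, and Zbtb16 differed by 0.47. Tsc22d3 was at 0.99 with median-of-ratios scaling. Over all 18018 genes counted, 6.71% were higher and 5.81% lower. RR held 2414 FPKM of the duodenal and jejunal genes, against 130 FPKM in C, and their part in these differences was not tested. With the scaling to coding genes, the counts over all genes were 904 higher and 1692 lower, in place of 1209 and 1047.

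Between the normal-diet libraries, RR against R, 4 of the 8 genes were lower on day 33 and none higher: Fkbp5 by 1.42, Pfkfb3 by 1.38, Zbtb16 by 1.19 and Hsd11b2 by 1.16. Sgk1 differed by 0.03 and Tsc22d3 by 0.21. Over 18003 genes, 5.42% were higher and 5.29% lower, or 766 and 1488 genes with the coding-gene scaling in place of 975 and 953. RR held 2414 FPKM of the duodenal and jejunal genes, against 244 FPKM in R, and 385 FPKM of the ileal genes, against 2775 FPKM. The part of tissue content in this pair was not tested.

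With methionine lacking, 1K against R, all 5 target and chaperone genes were higher: Fkbp5 by 2.99, Zbtb16 by 1.84, Sgk1 by 1.38, Tsc22d3 by 1.15 and Pfkfb3 by 1.07. None of the 8 genes was lower. Over 18165 genes, 7.17% were higher and 8.63% lower. With the coding-gene scaling the all-gene counts were 571 higher and 3600 lower, and with median-of-ratios scaling 940 and 2081, in place of 1302 and 1567. The coding-gene scaling moves the median of all genes to -0.48, and relative to that median Fkbp5 was higher by 2.92, Zbtb16 by 1.80, Sgk1 by 1.32, Tsc22d3 by 1.08 and Pfkfb3 by 1.01. Without regard to the median they were 0.83 for Sgk1, 0.60 for Tsc22d3 and 0.53 for Pfkfb3, under 2-fold. 1K held 3691 FPKM of the duodenal and jejunal genes, against 244 FPKM in R, and their part was not tested.

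With tryptophan and niacin lacking, 2K against R, Hsd11b1 (4.54), Fkbp5 (2.92) and Zbtb16 (2.43) were higher and Hsd11b2 (-1.63) was lower. Sgk1, Tsc22d3 and Pfkfb3 were within 2-fold, at 0.34, 0.17 and -0.62. Of all 19035 genes counted, 14.7% were higher and 14.1% lower, so 2K differed from R in many more genes than 1K did. The coding-gene scaling gave 2064 higher and 3979 lower genes, in place of 2801 and 2693.

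With all 3 nutrients lacking, 3K against R, Hsd11b1 (2.78), Zbtb16 (2.39) and Fkbp5 (2.05) were higher and Hsd11b2 (-1.01) was lower, though at -0.91 with a pseudocount of 1. Sgk1, Tsc22d3 and Pfkfb3 differed by 0.29, 0.10 and 0.37. Of 18873 genes, 11.6% were higher and 13.4% lower, with 1797 and 3159 genes under the coding-gene scaling in place of 2192 and 2538. All 3 diet comparisons share the library R. Fkbp5 and Zbtb16 were past 2-fold in each of them, while Sgk1, Tsc22d3 and Pfkfb3 were past it in 1K.

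**Figure D4:**
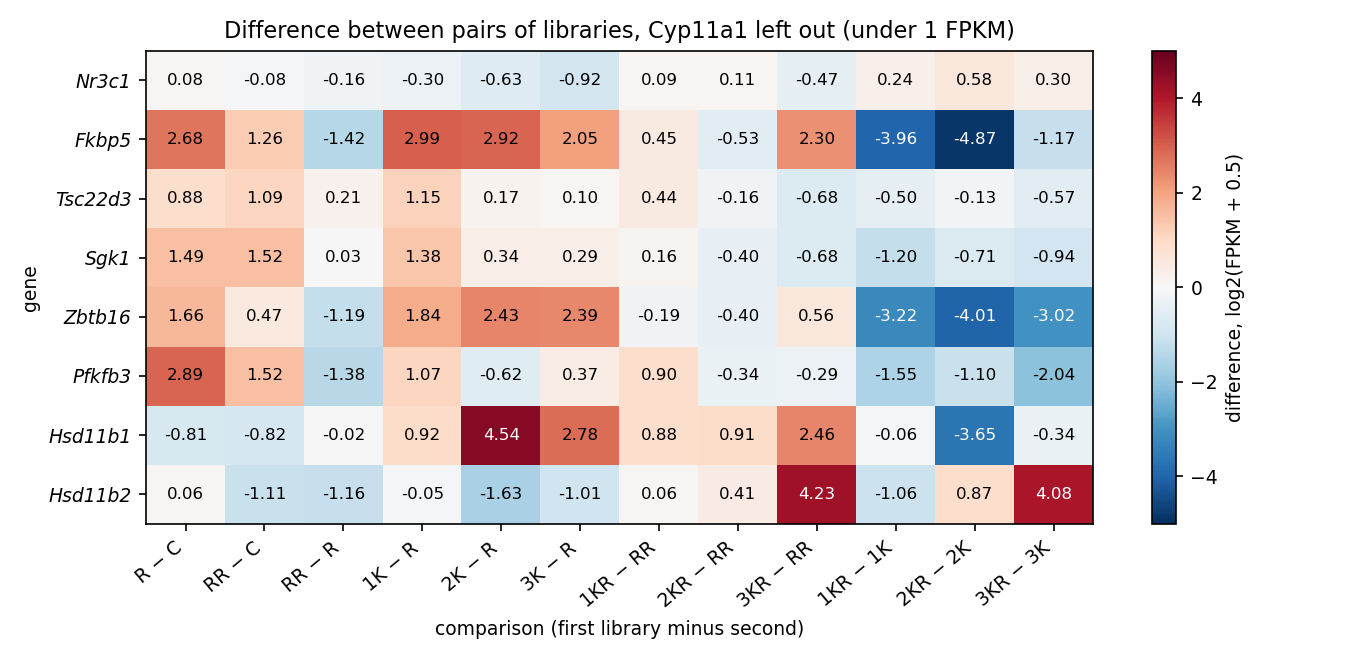
Difference in log2(FPKM + 0.5), first library minus second, for 8 genes in 12 pairs of libraries; red is higher and blue lower in the first library. Fkbp5 ranges from 2.99 (1K − R) to -4.87 (2KR − 2K), and Nr3c1 lies between 0.58 and -0.92.

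After 5 days back on the normal diet, Fkbp5, Zbtb16 and Pfkfb3 were at least 2-fold lower than on the deficient diet in all 3 pairs, while Sgk1 was so in 1KR against 1K only and Tsc22d3 in none. In 1KR against 1K, 5 of 8 genes were lower: Fkbp5 (-3.96), Zbtb16 (-3.22), Pfkfb3 (-1.55), Sgk1 (-1.20) and Hsd11b2 (-1.06). The last 2 were at -0.97 and -0.84 with the coding-gene scaling. None was higher, where 6.57% of 17495 genes were higher and 7.79% lower. The coding-gene scaling gave 1482 higher and 855 lower genes, in place of 1150 and 1362. In 2KR against 2K, Fkbp5 (-4.87), Zbtb16 (-4.01), Hsd11b1 (-3.65) and Pfkfb3 (-1.10) were lower and none was higher, where 13.5% of 18395 genes were higher and 19.0% lower. In 3KR against 3K, Zbtb16 (-3.02), Pfkfb3 (-2.04) and Fkbp5 (-1.17) were lower and Hsd11b2 (4.08) was higher, where 13.3% of 18879 genes were higher and 11.7% lower. Tsc22d3 differed by -0.50 in 1KR against 1K, -0.13 in 2KR against 2K and -0.57 in 3KR against 3K, and Sgk1 by -0.71 in 2KR against 2K and -0.94 in 3KR against 3K. RR was also lower than R in Fkbp5, Zbtb16 and Pfkfb3, and those libraries differ in intestinal markers as well as in day. In the refed against deficient pairs the day of collection differs along with the diet. Tissue markers differ in these pairs too, and their part was not tested.

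Against RR, of the same day, the refed libraries differed little in the single-deficiency arms. In 1KR none of the 8 genes was 2-fold apart, the nearest being Pfkfb3 at 0.90, where 2.47% of 17070 genes were higher and 3.51% lower. In 2KR none was either, the nearest being Hsd11b1 at 0.91, where 2.67% of 17035 genes were higher and 3.67% lower. In 3KR, Hsd11b2 (4.23), Hsd11b1 (2.46) and Fkbp5 (2.30) were higher and none lower, where 11.4% of 18263 genes were higher and 9.73% lower. Fkbp5 in 3KR thus stood at 55.6 FPKM against 10.9 FPKM in RR, while Sgk1 and Tsc22d3 differed by -0.68 each. The tissue markers of 3KR and RR differed as well. The sums in 3KR and RR were 181 and 2414 FPKM for duodenal and jejunal genes, 1603 and 206 FPKM for colon genes, and 2532 and 15.9 FPKM for neutrophil genes. Their part in the differences of 3KR was not tested.

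A list of 38 further glucocorticoid target genes held more higher than lower genes in all 3 deficient libraries. Against R, the all-gene shares higher and lower were 7.17% and 8.63% in 1K, 14.7% and 14.1% in 2K, and 11.6% and 13.4% in 3K. In 1K against R, 12 of 35 counted were higher and 1 lower, with a median of 0.43, against a median of 0.03 over all genes. The 4 farthest apart were the metallothioneins Mt1 (968 and 94.4 FPKM in 1K and R) and Mt2 (202 and 19.99 FPKM), the gluconeogenic phosphatase G6pc (59.3 and 5.76 FPKM) and Pdk4 (151 and 17.2 FPKM), a kinase that shuts down pyruvate oxidation. In 2K against R, 27 of 38 were higher and none lower, with a median of 1.75 against 0.02 over all genes. Here Lcn2 (3026 and 9.72 FPKM in 2K and R), Igfbp1 (429 and 0.956 FPKM) and Tat (859 and 2.91 FPKM) led, genes that liver expresses strongly, at least when inflamed, and Mt2 followed (1795 and 19.99 FPKM). The liver markers of 2K stand beside this count, and their part was not tested. In 3K against R, 22 of 36 were higher and none lower, with a median of 1.51 against 0.00 over all genes, led by Mt2 (1583 and 19.99 FPKM in 3K and R), Lcn2 (643 and 9.72 FPKM), Mt1 (2687 and 94.4 FPKM) and the decoy receptor Il1r2 (17.3 and 0.894 FPKM).

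In refed against deficient libraries the medians of the same list were below 0. Of all genes, 6.57% were higher and 7.79% lower in 1KR against 1K, and 13.5% and 19.0% in 2KR against 2K. For 3KR against 3K the shares were 13.3% and 11.7%. In 1KR against 1K the median was -0.54, with 1 of 35 higher and 12 lower. In 2KR against 2K it was -2.04, with 32 of 38 lower and none higher. In 3KR against 3K it was -0.92, with 3 of 37 higher and 18 lower. Against RR, the list had none of 34 genes apart in 1KR, 4 of 35 higher and 2 lower in 2KR, and 13 of 36 higher and 6 lower in 3KR. The shares of all genes in these pairs were 2.47% higher and 3.51% lower, 2.67% and 3.67%, and 11.4% and 9.73%. In that last pair Lcn2 (208 and 1.69 FPKM in 3KR and RR), Il1r2 (63.1 and 1.65 FPKM), Mt2 (151 and 11.5 FPKM) and the phosphatase gene Dusp1 (107 and 11.3 FPKM) were farthest apart, in the library where neutrophil genes were highest. In R against C, 6 of 35 were higher and 1 lower, where 4.43% of all genes were higher and 3.22% lower. In RR against C, 7 of 36 were higher and 3 lower, where 6.71% of all genes were higher and 5.81% lower. Of the 38 genes, 13 were above C in all 8 DSS libraries, among them Per1, Klf9, Ddit4 and Pdk4, where 7.58% of 21249 genes were. Higher in each of 1K, 2K and 3K than in the other 6 libraries were 14 of the 38, and 5.55% of the 21249.

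**Figure D5:**
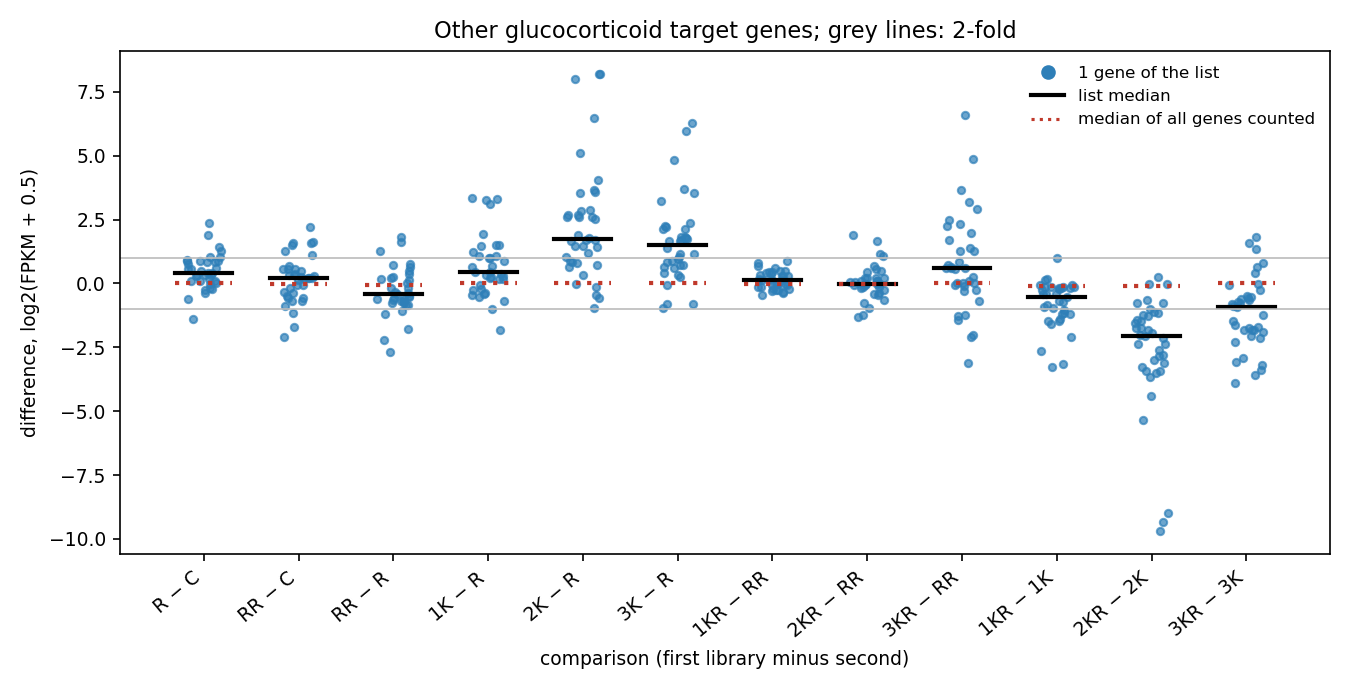
Difference in log2(FPKM + 0.5), first library minus second, for each counted gene of the list of 38 further glucocorticoid targets in 12 pairs of libraries; black bars are list medians, dotted red bars the medians of all genes counted, and grey lines mark 2-fold. The list medians are 1.75 in 2K − R and 1.51 in 3K − R, and 0.12 in 1KR − RR.

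Among 14 chaperone, coactivator and corepressor genes that act with the receptor, counted with the mineralocorticoid receptor gene Nr3c2, none was 2-fold apart in 1K against R, R against C or RR against C. Over all genes, 7.17% were higher and 8.63% lower in 1K against R, 4.43% and 3.22% in R against C, and 6.71% and 5.81% in RR against C, shares at which a list of this size would hold few. In 2K against R, Nr3c2 (6.99 and 42.4 FPKM in 2K and R) and Fkbp4 (16.2 and 47.5 FPKM), whose product competes with that of Fkbp5 for the Hsp90 complex, were lower. Both were lower in 3K against R too, with Nr3c2 at 11.1 FPKM and Fkbp4 at 23.4 FPKM in 3K. In both libraries the organ markers given above stand beside these values.

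The 17 genes of steroid synthesis ranged widely in level. Hsd3b3 stood at 2.43 FPKM in 3K, 21.0 FPKM in R and 50.1 FPKM in 3KR. Stard3, Fdx1 and Tspo stood at no less than 17.1, 10.1 and 15.3 FPKM in any library. Star, the cholesterol carrier of steroid-making cells, stood at 1.71 to 2.97 FPKM, and Cyp21a1 and Nr5a1, which define adrenal cortex, stayed at or below 0.207 and 0.137 FPKM. Cyp17a1 stood at 43.5 FPKM in 2K and at or below 1.36 FPKM in the other 8 libraries. Nr5a2, a nuclear receptor that drives steroid synthesis in the mouse gut, stood at 11.6 to 25.9 FPKM, highest in R and next in C. Of 10 salt transport genes regulated by corticosteroids, 7 were counted in the diet pairs. In 1K against R 4 were higher and none lower, in 2K against R 2 were higher and 2 lower, Nedd4l (-1.53) and Slc26a3 (-1.12), and in 3K against R 1 was higher and 2 lower, Slc12a2 (-1.37) and Atp1b1 (-1.21). Over all genes the shares in these pairs were 7.17% higher and 8.63% lower, 14.7% and 14.1%, and 11.6% and 13.4%. Slc9a3, a sodium-proton exchanger that Sgk1 acts on, was singled out after its values were seen. It stood at 147, 94.4 and 154 FPKM in 1K, 2K and 3K, at 38.6 to 72.0 FPKM in the other DSS libraries and at 16.8 FPKM in C.

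Among 15 glycolysis genes, set beside Pfkfb3, 6 were higher and none lower in 1K against R, with a median of 0.85, where 7.17% of all genes were higher and 8.63% lower. In R against C none was apart, where 4.43% of all genes were higher and 3.22% lower. In RR against C 5 of 15 were higher, in 2K against R 4 and in 3K against R 5, and none was lower. The all-gene shares higher and lower there were 6.71% and 5.81%, 14.7% and 14.1%, and 11.6% and 13.4%. Above C in all 8 DSS libraries were 7 of the 15, and 7.58% of 21249 genes. Of 12 paralogs of the members, none was apart in R against C or RR against C, and 3 were higher in 1K against R. The shares of all genes in these pairs are those just given. The paralog Pfkfb4 stood at 77.4, 32.9, 59.1 and 32.8 FPKM in 1K, 2K, 3K and R, and at 47.0 FPKM in C, above its level in R.

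The profiles most like that of Fkbp5, among 8811 other genes that reached 5 FPKM and varied at least 2-fold, were those of Gcnt3 (Pearson r = 0.98 over 9 libraries), a glycosyltransferase that builds branched mucin glycans, Hif3a (0.98), a subunit of hypoxia-inducible factors, F2rl1 (0.95), a protease-activated receptor, Celsr3 (0.95), a cadherin-family receptor, and Slc5a3 (0.95), an inositol transporter. Gcnt3 stood at 81.9, 68.8 and 68.1 FPKM in 1K, 2K and 3K, against 32.8 FPKM in R and 19.7 FPKM in C. Hif3a stood at 8.14, 7.24 and 7.73 FPKM in 1K, 2K and 3K, against 1.34 FPKM in R and 0.345 FPKM in C. For Pfkfb3 they were Pik3c2a (0.94), a lipid kinase, Ppt1 (0.92), a lysosomal thioesterase, Sgk1 (0.92), Spsb1 (0.91) and Rec114 (0.90). These correlations describe 9 libraries in which the same 3 deficient ones lie at one end, and each point shares its depth and tissue content across genes.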

How the data were processed

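RNA of the mouse intestinal tract was extracted with ISOGEN, depleted of ribosomal RNA and made into stranded libraries, per the labels' protocols. Alignment with HISAT2 and quantification with Cuffdiff 2.2.1 on GRCm38 are named in the submitters' processing notes; for the gene annotation, a name was not given in the sources used here. The deposited table holds FPKM per gene for 9 libraries, per the file headers, with no counts, so no count model was used. Gene positions came from GENCODE M21 on GRCm38, which holds 55227 of the 55468 genes, and promoter windows from RefSeq on GRCm38.p6.

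Python 3.11.15, numpy 2.4.6, pandas 2.3.3 and matplotlib 3.10.9 were used. Libraries were compared as differences in log2(FPKM + 0.5), over genes of at least 1 FPKM in either library, with 2-fold as a rule of size and no test. Depth was estimated from the spacing of the lowest FPKM values of genes with a single transcript of 800 to 5000 bases; intervals were not computed. The genes named were the 9 members, the 4 genes farthest apart from each list for the comparison described (some list genes beyond these were named to check an organ or a label, or after their values were seen), and the 5 most like Fkbp5 and Pfkfb3, leaving out predicted, small and mitochondrial genes. The members and lists were chosen with earlier results of these data known. Scaling, filters and likeness were tested on simulated data. Alternatives were other pseudocounts, filters, scalings and sets of libraries.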

Additional observations from a re-analysis of the deposited data

Results flagged for a closer look

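Fkbp5 was flagged because the same dietary lack went with opposite directions depending on whether the other nutrients were also lacking. Methionine deficiency alone (1K against R) stood with Fkbp5 higher by 2.99 on the log2 scale, and methionine deficiency on top of tryptophan and niacin deficiency (3K against 2K) with a difference of -0.87, so the second minus the first came to -3.85. The same 4 libraries give the other reading: tryptophan and niacin deficiency alone (2K against R) 2.92, on top of methionine deficiency (3K against 1K) -0.94, again a gap of -3.85. Hsd11b1 was flagged for the same reason, at 0.92 in 1K against R and -1.76 in 3K against 2K, a gap of -2.68; the other reading is 4.54 in 2K against R and 1.86 in 3K against 1K, which have the same direction. Each rests on 4 single libraries and the difference was not tested; 2K holds the liver and stomach transcripts and 2K and 3K the pancreatic ones.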

How the results depend on the processing

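Of 384 recomputed single-gene differences, none that was past 2-fold changed direction; 365 stayed on the same side of 2-fold, 13 lost it and 6 gained it. In 1K against R, 5 genes were 2-fold apart, against 3 with median-of-ratios scaling (Tsc22d3 0.94 and Pfkfb3 0.87) and 2 with coding-gene scaling, which also gave 3 in place of 5 in 1KR against 1K. A pseudocount of 0.1 gave 1 gene, Hsd11b1, in place of none in 1KR against RR and in 2KR against RR. Of the 5 genes above C in all DSS libraries, Fkbp5, Tsc22d3, Sgk1 and Pfkfb3 stayed so with median-of-ratios scaling, and Zbtb16 did not. With that scaling Zbtb16 differed by 0.38 in RR against C and by -0.41 in 2KR against RR, so 2KR lay just below C. With the coding-gene scaling it differed by 0.27 in RR against C. It then stood at -0.29 in 1KR and -0.41 in 2KR against RR, so both lay below C. Leaving out 2K and 3K, or 3KR as well (chosen after seeing the data), cannot break this pattern, so those cuts were no check of it. Of the 5 genes most like Fkbp5, 2 remained with Spearman correlation, 2 without 2K and 3K and 3 without C; of the 5 most like Pfkfb3, 1, 0 and 2 remained, so those names are unstable. The counts of further glucocorticoid targets in 1K, 2K and 3K against R stayed within 1.5 times. No paired analysis was possible because each condition has 1 library. Single libraries, unknown gut segment, organ transcripts and estimated depth limit every value.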

Other observations

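On chromosome 15, next to the genes for the last enzymes of corticosteroid synthesis, 2 genes of the Ly6 family were high in the 3 deficient libraries; they were singled out after their values were seen. Gml (74813452 to 74818815, minus strand) stood at 0.633, 0.126, 2.62 and 0.34 FPKM in 1KR, 2KR, 3KR and RR, at 26.6, 24.8, 53.1 and 0.544 FPKM in 1K, 2K, 3K and R, and at 0.099 FPKM in C. Gml2 (74819071 to 74834871, plus strand) stood at 25.9, 18.2 and 41.0 FPKM in 1K, 2K and 3K, against 0.341 FPKM in R, and at 1.26 FPKM or less in the other libraries. Cyp11b1 (74834125 to 74841643, minus strand), whose product makes corticosterone, stood at 1.04, 1.25 and 2.71 FPKM in 1K, 2K and 3K, against 0.063 FPKM in R, and Cyp11b2 at 0.202, 0.357 and 0.385 FPKM, where R is listed at 0. The 3′ end of Cyp11b1 overlaps Gml2 on the opposite strand, and Cyp11b1 and Cyp11b2 are close paralogs whose reads counting may split, so the origin of the low Cyp11b1 values was not tested. Cyp21a1, needed for the step before, stayed at or below 0.207 FPKM in all 9 libraries.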
